A study of Mus musculus with 36 samples.

Results

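The interferon-alpha response genes described here are 88 mouse genes, out of 21650 genes with an expression value in the series. They are the genes that the deposited table of hallmark gene sets assigns to the interferon-alpha response and that have a row in the expression table, which holds for 96 of 98, after the H2- genes and 8 further symbols (B2m, Tap1, Psmb8, Cd74, Csf1, Cxcl10, Trim12a and Ifi44l) had been barred by name, which took out 8 of the 96. Of the 88 members, 68 are also assigned to the interferon-gamma response and 20 are not. The series compared a pair of intraductal mammary tumor models. 4T1 cells, a luciferase-expressing metastatic mammary line from a BALB/c mouse, were inoculated through the teat into BALB/c mice, and Py230 cells, a line from spontaneous tumors of MMTV-PyMT transgenic C57BL/6 mice, into C57BL/6 mice. All mice were females inoculated in lactation just after their pups had been weaned, and control glands of each strain received only Matrigel, the carrier of the cells. No age is given in the labels. Primary tumors and Matrigel glands were taken 1, 3 or 6 weeks post-inoculation (w p.i.), with 3 libraries in each of 12 groups. Each line was given to its own strain only, so a difference between 4T1 and Py230 tumors holds line and strain together. The Matrigel glands measure the strain difference in glands without tumor cells. A difference beyond strain is what is left after the gland difference has been subtracted. This subtraction does not part line from strain within the tumors. Values are expression scores as deposited, centered and scaled so that within every library the scores of all genes average 0 with an SD of 1. Across genes, 1 score unit went with 2.78 log2 units of the authors' mean normalized count, a line across 13567 genes that serves only for orientation. In these bulk samples fewer cells of a type and less RNA per cell cannot be told apart. The study describes the tumor samples of a group as independent, the sources used here do not tie libraries to mice, and the tests measure the spread between libraries.

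Type I interferons are secreted by cells that sense foreign or misplaced nucleic acid, and they act on the receptor pair IFNAR1 and IFNAR2. The receptor activates the kinases JAK1 and TYK2, and transcription factors then bind the interferon-stimulated response element (ISRE) in the promoters of target genes. The targets include proteins that block viral entry, translation or genome copying, sensors that detect viral RNA, the ubiquitin-like modifier ISG15 with its enzymes, and subunits of the immunoproteasome. Interferon-gamma acts through the gamma-activated site (GAS) and induces many of the same genes.

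The promoters of 6 members are shown because the results below turn on these genes. Ifit3, Rsad2, Isg15 and Cmpk2 are the antiviral genes with the largest differences between the tumors at 3 w p.i. in a list of core interferon-stimulated genes. Gbp2b and Trim30d had the largest differences between the glands of both strains. The core list was chosen with earlier results of these data known, so counts over it are descriptions and no separate evidence. The sequences are the 250 bases before the start site in RefSeq in build GRCm38.p6, written 5′ to 3′ along the gene, at chr19:34583279-34583528 on the plus strand for Ifit3, chr12:26456453-26456702 on the minus strand for Rsad2, chr4:156200819-156201068 on the minus strand for Isg15, chr12:26468965-26469214 on the plus strand for Cmpk2, chr3:142594597-142594846 on the plus strand for Gbp2b and chr7:104507850-104508099 on the minus strand for Trim30d. Capitals mark matches to the core of the ISRE, GAAANNGAAA, or its reverse complement TTTCNNTTTC.
Ifit3: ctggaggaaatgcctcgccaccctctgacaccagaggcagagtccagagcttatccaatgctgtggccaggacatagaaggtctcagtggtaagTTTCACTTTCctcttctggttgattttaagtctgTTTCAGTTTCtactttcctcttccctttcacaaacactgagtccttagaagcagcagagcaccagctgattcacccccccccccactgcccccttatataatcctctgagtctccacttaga
Rsad2: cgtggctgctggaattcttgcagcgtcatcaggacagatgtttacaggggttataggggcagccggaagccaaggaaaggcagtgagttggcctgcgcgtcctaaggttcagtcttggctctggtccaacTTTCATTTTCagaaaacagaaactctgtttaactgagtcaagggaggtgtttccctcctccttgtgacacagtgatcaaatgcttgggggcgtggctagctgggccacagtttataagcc
Isg15: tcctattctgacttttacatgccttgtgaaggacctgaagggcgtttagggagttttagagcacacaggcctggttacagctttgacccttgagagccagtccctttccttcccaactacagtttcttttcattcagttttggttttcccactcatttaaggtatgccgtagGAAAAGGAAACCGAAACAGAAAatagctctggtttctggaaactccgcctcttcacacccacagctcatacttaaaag
Cmpk2: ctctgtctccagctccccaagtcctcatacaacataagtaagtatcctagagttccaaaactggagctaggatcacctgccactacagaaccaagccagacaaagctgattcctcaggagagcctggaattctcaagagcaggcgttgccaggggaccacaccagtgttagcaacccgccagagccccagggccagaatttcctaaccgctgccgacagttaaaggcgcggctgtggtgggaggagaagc
Gbp2b: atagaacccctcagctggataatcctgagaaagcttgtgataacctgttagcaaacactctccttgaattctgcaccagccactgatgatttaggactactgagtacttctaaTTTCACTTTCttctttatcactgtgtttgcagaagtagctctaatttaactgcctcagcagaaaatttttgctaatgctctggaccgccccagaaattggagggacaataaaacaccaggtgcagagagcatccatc
Trim30d: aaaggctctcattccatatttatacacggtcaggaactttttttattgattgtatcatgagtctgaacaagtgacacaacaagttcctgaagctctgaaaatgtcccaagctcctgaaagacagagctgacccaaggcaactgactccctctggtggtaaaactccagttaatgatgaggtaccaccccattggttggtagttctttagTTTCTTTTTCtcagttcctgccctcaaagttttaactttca

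Isg15 has 3 overlapping matches between 78 and 57 bases before the start site, Ifit3 has 2 that begin 156 and 122 bases before it, and Cmpk2 has none in this window. Of the 70 members with a promoter in the reference table (300 bases, of which 50 lie after the start site), 25 (35.7%) hold the ISRE core, against 3.99% of 27025 genes. Antiviral effectors hold it most often, in 14 of 26, and RNA sensors and signaling genes in 4 of 8. The GAS motif TTCNNNGAA was found in 10 of 70 members (14.3%) and in 9.55% of all genes. A match describes the letters in this window of the C57BL/6 reference and is not a binding site.

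By role the members are 32 antiviral effectors, 11 RNA sensors and signaling proteins, 5 genes of the ISG15 conjugation system, 11 transcription factors and co-factors, 6 proteasome and antigen processing genes, 11 cytokines, receptors and surface or secreted proteins, and 12 genes of cell death, metabolism and other functions. Their mean normalized counts in the authors' table ran from 19.1 for A530032D15Rik to 21532 for Txnip, with a median of 614 against 229.5 for all genes, and 82 members reached 100. The scores follow the level of a gene within a library but not per length, so they are compared between libraries and not between genes. Several members have close relatives among which read assignment is uncertain, including all members that share a human homolog in the deposited table. These are Ifit3 and Ifit3b, Psme2 and Psme2b, Gbp2 and Gbp2b, Mx1 and Mx2, Plscr1 and Plscr2, the genes Ifitm1, Ifitm2 and Ifitm3, the relatives of human TRIM5 (Trim5, Trim12c, Trim30a and Trim30d) and those of human SP110 (Sp110, Sp140, A530032D15Rik, A630001G21Rik and C130026I21Rik). Cxcl11 and Mx2 are annotated as polymorphic pseudogenes in the GENCODE vM21 annotation of the C57BL/6 genome. Reads of both strains were mapped to this genome, and the part of this in any strain difference was not tested.

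The core interferon-stimulated genes moved together between libraries of the same group. Isg15, the ubiquitin-like modifier, was at 0.12, 0.51 and 0.65 in the 3 Py230 tumors at 1 w p.i., and Ifit3, an inhibitor of viral RNA translation, was at 0.63, 0.91 and 1.15 in the same order. In the C57BL/6 glands at 1 w p.i. they were at 0.77, 0.32 and 0.24 and at 1.24, 0.92 and 0.76. In both groups the library that was highest for Isg15 was also highest for Ifit3. After the group means had been removed, the 16 core genes among the members correlated with a median r of 0.84 over their 120 pairs, from 0.47 to 0.95, and all 88 members with a median r of 0.56 over 3828 pairs, from -0.73 to 0.96. These are descriptions over 36 libraries that share scale and depth, and genes are not independent replicates. The median SD of the core genes within a group was 0.070 to 0.19 score units, against 0.041 to 0.082 for all genes. Over the 12 group means, the members most like Isg15 were Usp18 (r = 0.95), the protease that removes ISG15 from its targets, Dhx58 (r = 0.95), an RNA sensor, and Tdrd7 (r = 0.95).

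The first question was which members differed between the strains without a tumor. In the Matrigel glands, 13 members were lower and 2 higher in BALB/c than in C57BL/6 mice when the 3 weeks were averaged, at an adjusted p under 0.05 in limma's moderated linear model over all 36 libraries, the rule for a call throughout. This is 15 of 88, against 11.0% of all genes in either direction, 5.50% higher and 5.49% lower. Among the 13 were 8 antiviral effectors, 3 RNA sensors and signaling genes, Herc6 of the ISG15 system and Ly6e. Gbp2b, an interferon-inducible GTPase that attacks intracellular pathogens, was higher in BALB/c glands by 0.93 ± 0.087 (SE, adjusted p = 6.44e-09), and Gmpr, which converts guanine to inosine nucleotides, by 0.31 ± 0.088 (SE, adjusted p = 0.0208). The call for Gmpr was lost without any of 3 libraries, with adjusted p-values of 0.0529 to 0.0613. The most negative differences were -0.81 ± 0.072 (SE, adjusted p = 2.60e-09) for Trim30d, -0.64 ± 0.036 (SE, adjusted p = 8.39e-14) for Trim5 and -0.58 ± 0.047 (SE, adjusted p = 3.58e-10) for Ly6e, a surface protein that blocks virus entry. By week the difference between the glands was 0.99, 1.17 and 0.62 for Gbp2b from the earliest week to the last, -0.81, -0.78 and -0.84 for Trim30d, -0.63, -0.54 and -0.76 for Trim5 and -0.55, -0.64 and -0.56 for Ly6e. For these 4 genes its sign was the same in each week. Ifit3 differed by -0.44 ± 0.094 (SE, adjusted p = 0.0016), Epsti1 by -0.41 ± 0.069 (SE, adjusted p = 0.000108), and Rsad2, the antiviral enzyme viperin, by -0.30 ± 0.075 (SE, adjusted p = 0.00701). For Rsad2 the weekly differences were -0.37, -0.088 and -0.44. Of the 16 core genes, Cmpk2, Ifit3 and Rsad2 were called and 15 had a negative difference, with a median of -0.14. Of the cell markers, 4 of 5 milk protein genes of lactating epithelium were higher in BALB/c glands and none lower. Their mean level did not overlap between the strains in any week, at 1.61 to 2.23 in BALB/c against 1.2 to 1.58 in C57BL/6 glands at 1 w p.i., 1.37 to 1.57 against 0.93 to 1.18 at 3 w p.i. and 1.2 to 1.26 against 0.92 to 1.08 at 6 w p.i. Markers of leukocytes were lower in BALB/c glands in 2 of 8 and higher in none, at 0.69 to 1.24 against 1.03 to 1.46, and those of T cells and NK cells in 2 of 8 and none, at -0.69 to -0.35 against -0.57 to -0.14; the part of all these markers in the member differences was not tested.

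Only 4 members separated every library of BALB/c mice from every library of C57BL/6 mice, 18 against 18 with tumors included, namely Gbp2b, Ly6e, Trim5 and Trim30d, and 0.767% of all genes did so, with 0.383% in each direction. Gbp2b lay at 0.56 to 1.69 with a median of 0.89 on the BALB/c side and at -0.58 to 0.33 with a median of -0.18 on the C57BL/6 side. Ly6e lay at 1.62 to 2.01 and at 2.25 to 2.65. Trim5, a mouse relative of human TRIM5, a restriction factor that targets retroviral capsids, lay at -0.74 to -0.47 and at -0.24 to 0.14. Trim30d lay at -0.59 to 0.29 and at 0.35 to 0.75, the narrowest gap of the 4 genes. In build GRCm38 the gene bodies lie at chr3:142594847-142619179 on the plus strand for Gbp2b, chr15:74955051-74959905 on the plus strand for Ly6e, and chr7:104263386-104288094 and chr7:104470014-104507849, both on the minus strand, for Trim5 and Trim30d. Between the tumors Gbp2b differed by 1.67 ± 0.15, 1.27 ± 0.15 and 1.18 ± 0.15 in the order of the weeks (adjusted p = 8.53e-09, 6.39e-07 and 4.73e-07), and Ly6e by -0.54 ± 0.082, -0.66 ± 0.082 and -0.77 ± 0.082 (adjusted p = 4.72e-05, 1.21e-06 and 2.00e-08). Beyond the strain difference of the glands neither gene was called in any week, the differences at 6 w p.i. being 0.55 ± 0.21 (adjusted p = 0.0577) and -0.21 ± 0.12 (adjusted p = 0.199). Gbp2b, whose promoter holds 1 ISRE core match, was not level within a strain. It was at -0.48, -0.53 and -0.57 in Py230 tumors at 1 w p.i. and at -0.053, 0.13 and -0.26 at 3 w p.i., a rise of 0.47 ± 0.15 (SE, adjusted p = 0.0306) that lost its call without any of 5 of the 6 libraries (adjusted p up to 0.138). In 4T1 tumors at 6 w p.i. it was at 1.4, 1.27 and 1.21, above the BALB/c glands of that week by 0.57 ± 0.15 (SE, adjusted p = 0.00221). Trim30d reached 0.17, 0.29 and 0.11 in 4T1 tumors at 6 w p.i. against -0.081, -0.43 and -0.59 in BALB/c glands. That tumor group lay above all libraries of its own glands and below all Py230 tumors, so that the difference between the tumors was smaller than that between the glands by 0.55 ± 0.18 (SE, adjusted p = 0.0234). The call of this last difference was lost without any of 4 libraries (adjusted p up to 0.0801).

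**Figure D1:**
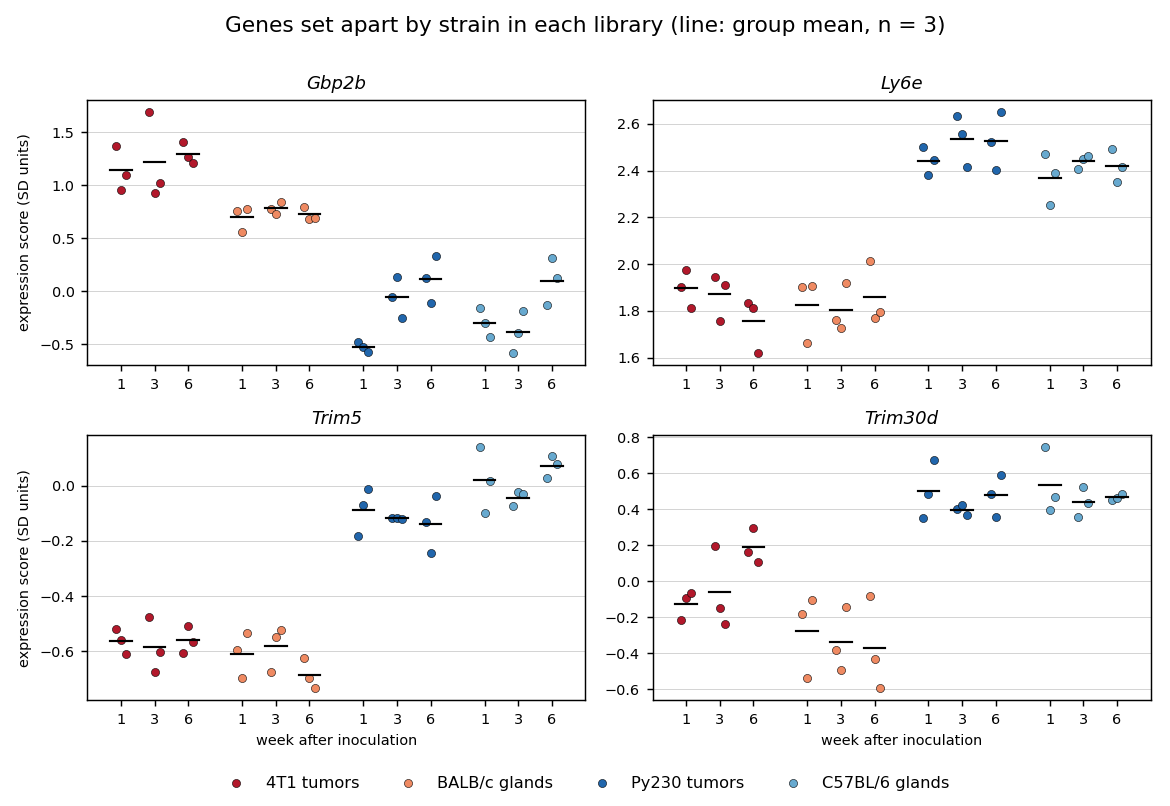
Expression score (SD units, vertical axis) of Gbp2b, Ly6e, Trim5 and Trim30d in all 36 libraries, by week after inoculation (horizontal axis) and kind of sample (color); points are libraries and black lines group means of 3. BALB/c and 4T1 libraries lie above the others for Gbp2b and below them for the other 3 genes, with no overlap over 18 against 18 libraries.

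Between 4T1 and Py230 tumors, 41 of the 88 members were called in at least 1 week (62.3% of all genes), and 10 were called in all 3 weeks in the same direction (3.71% of all genes). Higher in 4T1 tumors in all 3 weeks were Gbp2b, Ifitm1, Cd47 and Casp8, and lower were Ly6e, Trim5, Ifit3, Ifit3b, Cmpk2 and Trim14. Of the 15 members called between the glands, 11 were also called between the tumors in at least 1 week, as were 75.6% of all genes called between the glands. The share of members called was near that of all genes in the first and second sampling and below it at 6 w p.i. At 1 w p.i. 9 members were higher and 8 lower in 4T1 tumors (17 of 88, against 19.4% of all genes, 11.0% higher and 8.43% lower). At 3 w p.i. 10 were higher and 18 lower (28, against 30.3%, 11.9% and 18.5%), and at 6 w p.i. 15 and 12 (27, against 40.8%, 24.1% and 16.7%). After the difference between the glands of the same week had been subtracted, 0 members were called at 1 w p.i. (0.305% of all genes, 0.240% higher and 0.0647% lower). At 3 w p.i. 4 were higher and 0 lower (9.15%, 2.64% and 6.51%), and at 6 w p.i. 14 were higher and 3 lower (25.5%, 14.4% and 11.1%). At 1 w p.i. 17 members passed an unadjusted p of 0.05 in limma's test of this subtracted difference, and 1 was called with the replicate number as a block. A fit of only the groups compared, which rests on 6 libraries, called 8 members between the tumors at 1 w p.i. and 6 at 3 w p.i., all 6 of them lower in 4T1 tumors.

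**Figure D2:**
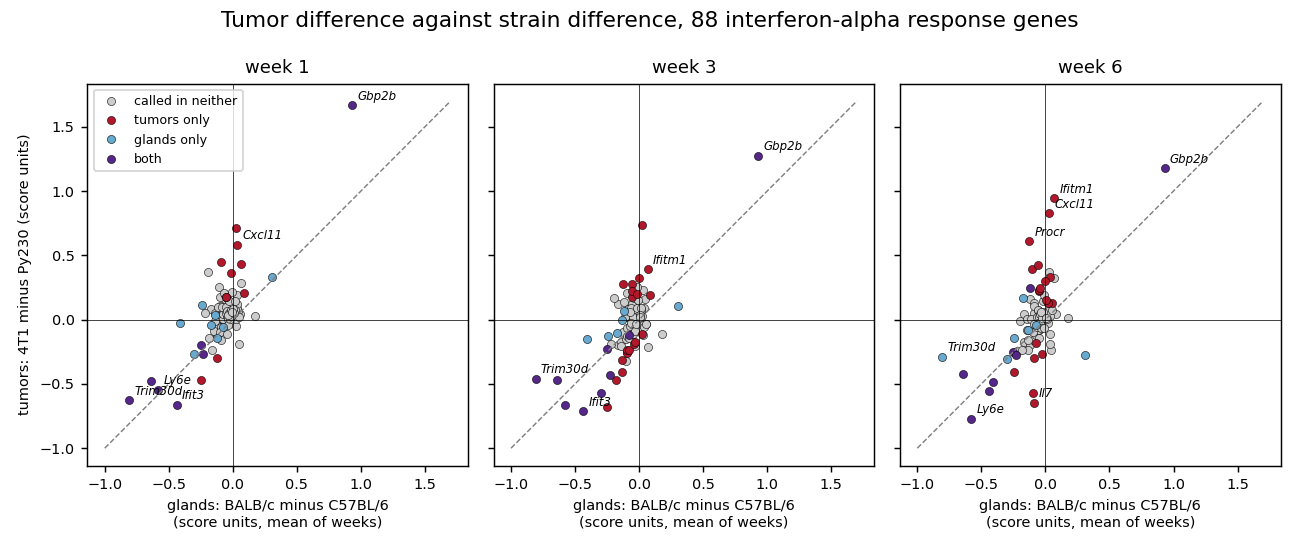
Difference of each of the 88 members between 4T1 and Py230 tumors (vertical axis, score units) against its difference between BALB/c and C57BL/6 Matrigel glands averaged over the weeks (horizontal axis, score units), 1 panel per week; the dashed line marks equal differences and color marks where the adjusted p was under 0.05. Gbp2b, Ly6e and Trim5 lie far from 0 on both axes, whereas Ifitm1, Cxcl11, Procr and Il7 at week 6 lie far from 0 on the vertical axis only.

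At 1 w p.i., apart from Gbp2b, Ly6e, Trim5 and Trim30d, large positive differences belonged to Cxcl11, Psmb9 and Ifitm1. The most negative belonged to Ifit3, which was also called between the glands, Ifit3b and Procr. Cxcl11, a chemokine for CXCR3-bearing lymphocytes, was at -0.54, -0.83 and -0.95 and at -1.44, -1.38 and -1.25, with a difference of 0.58 ± 0.19 (SE, adjusted p = 0.0334). The immunoproteasome subunit Psmb9 was at 1.17, 1.01 and 1.13 and at 0.50, 0.74 and 0.73, and differed by 0.44 ± 0.10 (SE, adjusted p = 0.00417). In both genes all 3 4T1 tumors lay above all 3 Py230 tumors. This held for 29 members and for 20.5% of all genes at 1 w p.i. Negative differences were -0.66 ± 0.16 (SE, adjusted p = 0.00626) for Ifit3, -0.47 ± 0.14 (SE, adjusted p = 0.0236) for Ifit3b and -0.30 ± 0.076 (SE, adjusted p = 0.0077) for Procr, the endothelial receptor of protein C. The glands of that week already differed by -0.48 for Ifit3, -0.31 for Ifit3b and -0.20 for Procr, and by -0.094 for Cxcl11 and -0.14 for Psmb9. No member was called beyond this strain difference at 1 w p.i. The call of Cxcl11 was lost without any of 5 of the 6 libraries (adjusted p up to 0.166), and that of Ifit3 without 4T1 replicate 3 (adjusted p = 0.0507). Likewise the call of Ifit3b was lost without any of 4 libraries (adjusted p up to 0.14) and that of Procr without 4T1 replicate 3 (adjusted p = 0.0527). The count of 17 fell to 10 without 4T1 replicate 1, to 6 without 4T1 replicate 3 and to 10 without Py230 replicate 1. Leukocyte markers were all higher in 4T1 tumors, 8 of 8, with a mean level of 1.46 to 1.76 against 0.93 to 1.34, and so were 5 of 8 markers of T cells and NK cells and 4 of 5 milk protein genes, at 2.04 to 2.21 against 1.41 to 1.54, with none of either lower; their part in the member differences was not tested.

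At 3 w p.i. the called members included antiviral effectors and RNA sensors and signaling genes that were lower in 4T1 than in Py230 tumors. Of the 88 members 18 were called lower, near the share of 18.5% among all genes. Lower were 9 of 32 antiviral effectors, 4 of 11 RNA sensors and signaling genes, Isg15, and the co-factors Ifi35 and Nmi. Higher were 3 antiviral effectors and 1 of the RNA sensors and signaling genes, Ripk2. Of the 16 core genes, 7 were lower, none was higher and 15 had a negative difference, with a median of -0.21. Isg15 was at 0.41, 0.059 and 0.092 in 4T1 tumors and at 0.79, 0.73 and 0.46 in Py230 tumors. The groups did not overlap, and the difference was -0.47 ± 0.14 (SE, adjusted p = 0.0139). Rsad2 was at 0.26, 0.39 and 0.49 in 4T1 and at 1.0, 0.97 and 0.89 in Py230 tumors, and differed by -0.57 ± 0.13 (SE, adjusted p = 0.00156). Ifit3 was at 0.40, 0.18 and 0.46 and at 1.1, 1.1 and 0.97, and differed by -0.71 ± 0.16 (SE, adjusted p = 0.00164). Rtp4, a receptor-transporting protein that binds viral RNA, was at 0.84, 0.65 and 0.81 and at 1.35, 1.2 and 0.97, and differed by -0.41 ± 0.10 (SE, adjusted p = 0.00314). For all 4 genes the lowest Py230 tumor lay above the highest 4T1 tumor. This held for 14 of the 88 members and for 18.7% of all genes. Negative differences were also called for Cmpk2, a mitochondrial nucleotide kinase (-0.43 ± 0.088, adjusted p = 0.000577), Ifih1, the RNA sensor MDA5 (-0.26 ± 0.072, adjusted p = 0.00804), and Eif2ak2, the RNA-dependent kinase PKR that halts translation (-0.19 ± 0.066, adjusted p = 0.0297). The core genes Usp18 (-0.21 ± 0.12, adjusted p = 0.203), Irf7 (-0.32 ± 0.16, adjusted p = 0.142), Mx1 (-0.19 ± 0.17, adjusted p = 0.427) and Stat2 (0.14 ± 0.095, adjusted p = 0.278) did not pass.

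These antiviral differences were not called once the strain difference of the glands at 3 w p.i. had been subtracted. The remaining difference was -0.32 ± 0.20 for Isg15 (adjusted p = 0.33), -0.48 ± 0.18 for Rsad2 (adjusted p = 0.0942), -0.42 ± 0.23 for Ifit3 (adjusted p = 0.26) and -0.60 ± 0.20 for Ifit3b (adjusted p = 0.0611). It was negative for 15 of the 16 core genes, and none of the 16 was called (smallest adjusted p = 0.0869 in limma's test). These genes move together between libraries, so the count of signs is no separate evidence. A p that misses the threshold does not show that the models were alike. The call of Isg15 between the tumors was lost without any of 4 of the 6 libraries (adjusted p up to 0.0833), whereas those of Rsad2, Ifit3 and Cmpk2 were kept without any 1 library. The calls of Eif2ak2 and Ifih1 were lost without any of 4 libraries and without 1 library (adjusted p up to 0.221 and 0.0664). In the tumor libraries of 3 w p.i., 4T1 replicate 1 and Py230 replicate 1 had lower adipocyte markers (mean levels 0.611 and 0.295) than the other 2 of each group (1.61 to 1.98). Without both libraries, an alternative chosen after seeing the data, 17 members were called, 4 higher and 13 lower, and without Py230 replicate 1 alone 16, 8 higher and 8 lower. Macrophage and monocyte markers were higher in 4T1 tumors, 8 of 8, with a mean level of 1.37 to 1.88 against 1.02 to 1.1. Leukocyte markers were higher in 3 of 8. The part of these markers in the member differences was not tested.

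**Figure D3:**
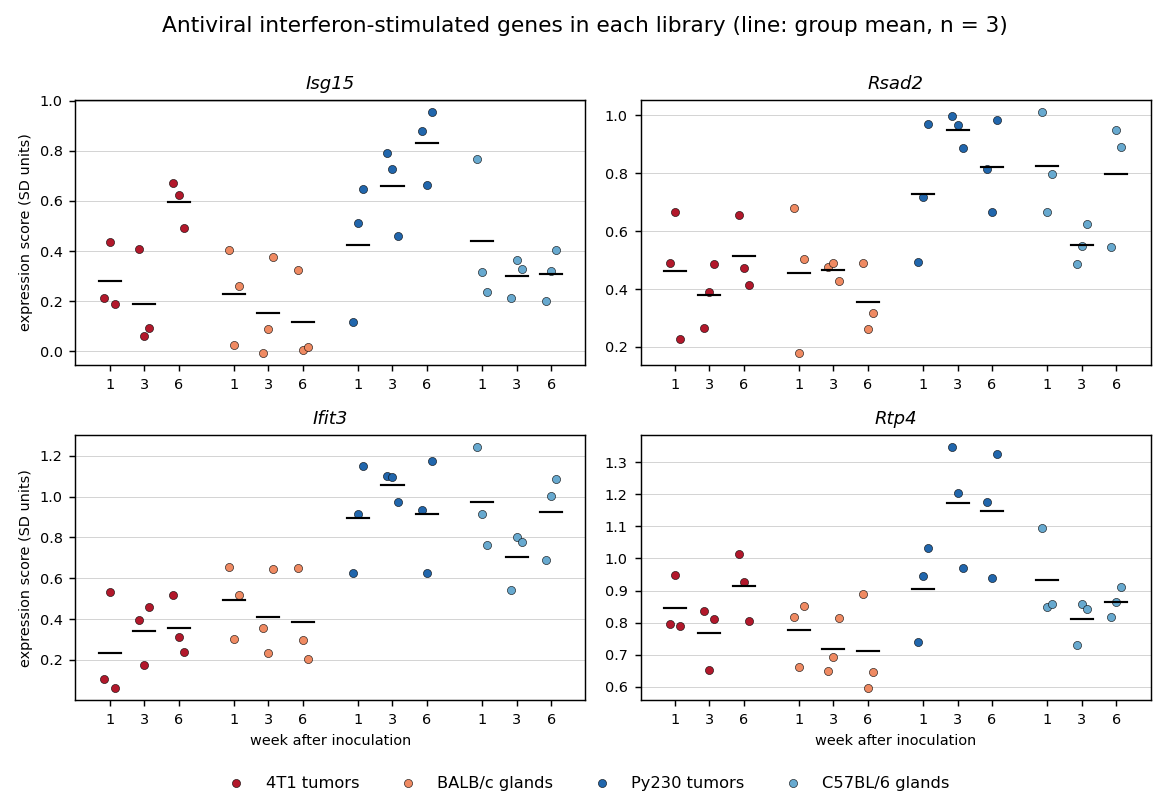
Expression score (SD units, vertical axis) of Isg15, Rsad2, Ifit3 and Rtp4 in all 36 libraries, by week after inoculation (horizontal axis) and kind of sample (color); points are libraries and black lines group means of 3. At week 3 the 3 Py230 tumors lie above the 3 4T1 tumors for every gene shown, as they do for 18.7% of all genes. At week 1 Isg15 spans 0.12 to 0.65 among the Py230 tumors.

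The members higher in 4T1 tumors at 3 w p.i. were of several roles. Cd47, the surface signal that inhibits phagocytosis, was at 1.78, 1.54 and 1.53 against 1.26, 1.37 and 1.39, with a difference of 0.28 ± 0.057 (SE, adjusted p = 0.000665). Casp8, the initiator caspase of death receptors, differed by 0.17 ± 0.049 (SE, adjusted p = 0.00791), Tmem140 by 0.33 ± 0.065 (SE, adjusted p = 0.000461) and Irf2, a factor that competes with IRF1, by 0.23 ± 0.063 (SE, adjusted p = 0.00774). Procr had turned, from lower in 4T1 tumors at 1 w p.i. to higher at 3 w p.i. by 0.28 ± 0.076 (SE, adjusted p = 0.0072), and its level in Py230 tumors went from 0.43, 0.40 and 0.30 to -0.25, -0.079 and -0.021. Its call at 3 w p.i. was lost without 4T1 replicate 2 or Py230 replicate 1 (adjusted p up to 0.075). Procr, Cd47, Tmem140 and Casp8 were the 4 members called beyond the strain difference, by 0.35 ± 0.11, 0.31 ± 0.081, 0.31 ± 0.092 and 0.24 ± 0.069, with adjusted p-values of 0.0427, 0.0173, 0.0322 and 0.0309. Beyond strain 0 members were called without Py230 replicate 1 and 0 without both libraries low in adipocyte markers, 2 without 4T1 replicate 1, 2 without Py230 replicate 2, 1 or 2 without any of 4 single gland libraries of that week (both BALB/c replicates 1 and 2 and C57BL/6 replicates 1 and 2), and 12 without Py230 replicate 3.

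At 6 w p.i. 15 members were higher and 12 lower in 4T1 than in Py230 tumors, and 14 and 3 differed beyond the strain difference of the glands. Ifitm1, a membrane protein that blocks the entry of viruses (chr7:140967221-140969825 in GRCm38), was at 0.68, 0.62 and 0.41 in 4T1 tumors and at -0.38, -0.41 and -0.33 in Py230 tumors. In the glands of that week it was at -0.067, -0.065 and -0.18 in BALB/c and at -0.034, -0.14 and -0.10 in C57BL/6 mice. The 4T1 tumors lay above every other library of that week, and the tumors differed by 0.94 ± 0.10 (SE, adjusted p = 2.81e-08) and beyond strain by 0.95 ± 0.14 (SE, adjusted p = 1.64e-05). Procr was at 0.60, 0.64 and 0.67 in 4T1 and at 0.017, 0.066 and -0.013 in Py230 tumors, a difference beyond strain of 0.71 ± 0.11 (SE, adjusted p = 1.60e-05). Mov10, an RNA helicase that restricts retroelements, was at 1.2, 1.23 and 1.21 and at 0.89, 0.75 and 0.82, a difference beyond strain of 0.48 ± 0.12 (SE, adjusted p = 0.00252). Both tumor groups lay above their glands for Mov10, at 0.48, 0.33 and 0.38 in BALB/c and 0.45, 0.51 and 0.50 in C57BL/6 mice, and the 4T1 tumors lay higher. Cxcl11, near the low end of each library in most groups, was at -0.18, -0.58 and -0.33 in 4T1 and at -1.21, -1.34 and -1.03 in Py230 tumors, a difference beyond strain of 0.79 ± 0.27 (SE, adjusted p = 0.0324). Its call beyond strain was lost without any of 8 of the 12 libraries (adjusted p up to 0.0857). Of the 3 4T1 tumors of 3 w p.i., replicate 1, at -0.10, stood far above the remaining 2, at -1.46 and -1.18.

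The remaining members higher in 4T1 tumors beyond strain at 6 w p.i. were Cd47, Ccrl2, Isg20, Tmem140, Irf2, Casp8, Nub1 and Slc25a28, and Trim30d and Trim5, for which the tumors differed less than the glands did. Il7, a survival cytokine of lymphocytes (chr3:7569994-7613760), was at 0.31, 0.29 and 0.11 in Py230 tumors and at -0.38, -0.27 and -0.58 in 4T1 tumors, a difference beyond strain of -0.56 ± 0.096 (SE, adjusted p = 8.05e-05). All other 33 libraries lay below the 3 Py230 tumors of this week, at -0.27 or less. Gmpr was lower beyond strain by -0.70 ± 0.21 (SE, adjusted p = 0.0171) and Ogfr, the opioid growth factor receptor, by -0.23 ± 0.079 (SE, adjusted p = 0.0309), and the call of Ogfr was lost without any of 8 of 12 libraries (adjusted p up to 0.0719). Of the antiviral genes low in 4T1 tumors at 3 w p.i., Ifit3 (-0.56 ± 0.16, adjusted p = 0.0072), Ifit3b, Cmpk2 and Ifih1 were called between the tumors at 6 w p.i., and Isg15 (-0.24 ± 0.14, adjusted p = 0.199), Rsad2 (-0.31 ± 0.13, adjusted p = 0.0581) and Rtp4 (-0.23 ± 0.10, adjusted p = 0.0656) were not. The change of the tumor difference between 3 and 6 w p.i. did not pass for any core gene, whereas it did for 8 members, among them Ifitm1 (0.55 ± 0.14, adjusted p = 0.00605), Mov10 (0.55 ± 0.12, adjusted p = 0.000929) and Il7 (-0.58 ± 0.096, adjusted p = 6.03e-05), of which 7 were positive and 1 negative, against 26.7% of all genes, 17.8% and 8.88%. The call of Ifit3 was lost without Py230 replicate 3 (adjusted p = 0.0629) and that of Cmpk2 without either of 2 libraries (adjusted p up to 0.121). The count of 8 was 4 to 12 without single libraries and fell to 5 without 4T1 replicate 2 of 3 w p.i., 4T1 replicate 1 or 2 or Py230 replicate 2 of 6 w p.i., and to 4 without 4T1 replicate 3 of 3 w p.i. The 15 and 12 calls became 15 and 18 with cyclic loess normalization, and Ifitm1, Procr and Il7 kept their direction and call beyond strain under every alternative run. Neutrophil markers were higher in 4T1 tumors, 6 of 6, at a mean level of 0.22 to 0.43 against -0.65 to -0.48, and milk protein genes lower, 5 of 5, at -0.70 to -0.67 against 0.42 to 0.70, while no leukocyte marker of 8 was called; their part in the member differences was not tested.

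**Figure D4:**
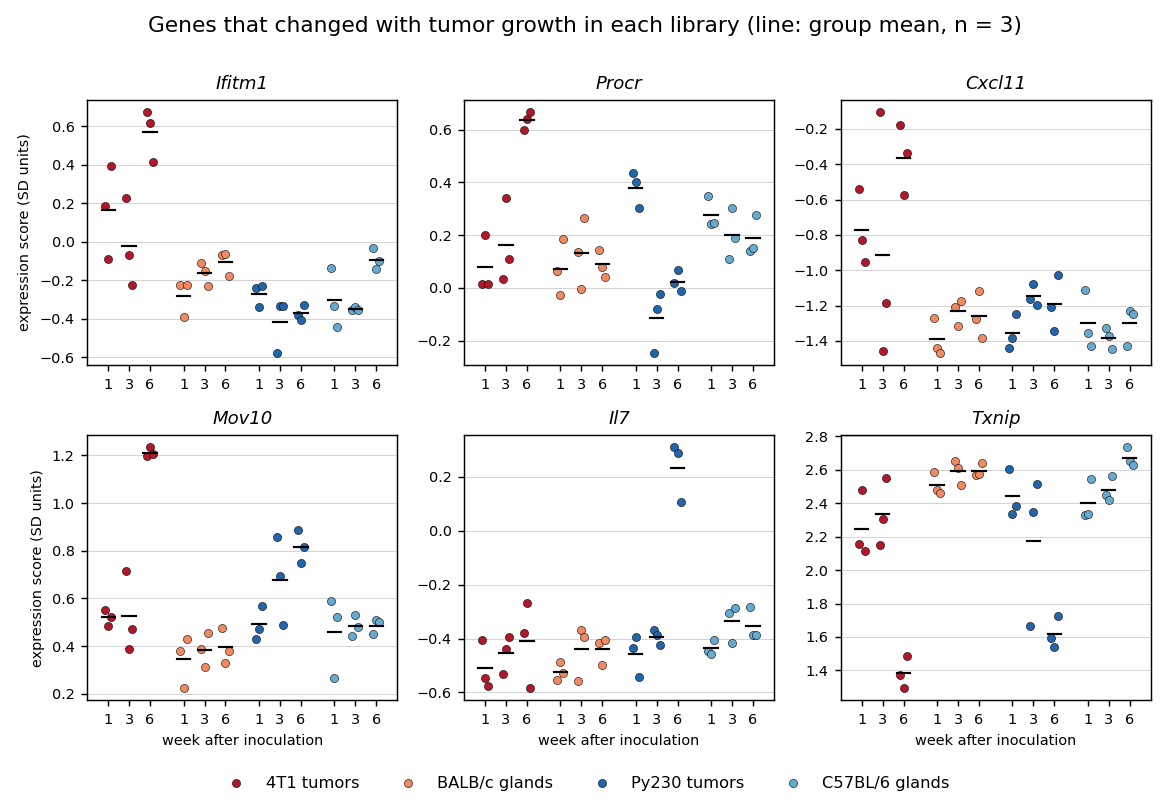
Expression score (SD units, vertical axis) of Ifitm1, Procr, Cxcl11, Mov10, Il7 and Txnip in all 36 libraries, by week after inoculation (horizontal axis) and kind of sample (color); points are libraries and black lines group means of 3. At week 6 Ifitm1, Procr and Mov10 are highest in 4T1 tumors and Il7 in Py230 tumors, and Txnip is lower in both tumors than in all glands.

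The comparison of each tumor with the Matrigel glands of its strain asked when the members moved with tumor growth. In 4T1 tumors 14 members were higher and 0 lower at 1 w p.i. (16.6% of all genes were called, 9.91% higher and 6.72% lower). At 3 w p.i. 2 were higher and 0 lower (3.25%, 2.10% and 1.15%), and at 6 w p.i. 48 were higher and 3 lower (60.1%, 38.6% and 21.5%). In Py230 tumors 0 members were called at 1 w p.i. (0.00924% of all genes, all lower), 13 were higher and 1 lower at 3 w p.i. (19.7%, 12.8% and 6.90%), and 25 were higher and 9 lower at 6 w p.i. (47.6%, 28.8% and 18.7%). At 1 w p.i. 2 members of Py230 tumors passed an unadjusted p of 0.05 in limma's test, and no alternative run gave a call. The 14 members of 4T1 tumors at 1 w p.i. included Cxcl11 (0.62 ± 0.19, adjusted p = 0.0306), Psmb9 (0.45 ± 0.10, adjusted p = 0.00767) and Ifitm1 (0.45 ± 0.10, adjusted p = 0.00809), and no core gene. The count fell to 2 without 4T1 replicate 1 and to 0 without 4T1 replicate 3 or without BALB/c gland replicate 2, and leukocyte markers were higher in these tumors in 8 of 8, at 1.46 to 1.76 against 0.69 to 1.24 in the glands. The 2 members at 3 w p.i., among them Casp8, were lost without 4T1 replicate 1 or any 1 gland library of that week, and 12 members were called without 4T1 replicate 2 and 12 without 4T1 replicate 3.

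At 6 w p.i. some members of every role were higher in 4T1 tumors than in BALB/c glands, as were 38.6% of all genes. Higher were 16 of 32 antiviral effectors, 6 of 11 RNA sensors and signaling genes, 4 of 5 genes of the ISG15 system, 7 of 11 transcription factors and co-factors, 5 of 6 proteasome genes, 4 of 11 surface or secreted proteins and 6 of 12 others. The median difference of the members was 0.19, against 0.065 for all genes. Isg15 was at 0.67, 0.62 and 0.49 in the tumors and at 0.32, 0.0059 and 0.018 in the glands, and Usp18 at 0.71, 0.51 and 0.48 and at 0.43, 0.10 and 0.15. The differences were 0.48 ± 0.14 (SE, adjusted p = 0.00575) and 0.34 ± 0.12 (SE, adjusted p = 0.017). The largest rises were those of Cxcl11 (0.90 ± 0.19, adjusted p = 0.000272), Mov10 (0.82 ± 0.082, adjusted p = 6.60e-09), the transcription factor Batf2 (0.79 ± 0.14, adjusted p = 2.38e-05) and Ifitm1 (0.67 ± 0.10, adjusted p = 4.25e-06). Lower were Txnip, a thioredoxin-binding protein that restrains glucose uptake, at 1.37, 1.29 and 1.48 against 2.57, 2.57 and 2.64 (-1.21 ± 0.14, adjusted p = 4.44e-08), Gmpr (-1.0 ± 0.15, adjusted p = 4.51e-06) and Plscr2 (-0.47 ± 0.10, adjusted p = 0.000357). With cyclic loess normalization 35 members were higher and 7 lower, in place of 48 and 3. Adipocyte markers were lower in these tumors in 6 of 6, at -0.33 to -0.072 against 1.5 to 1.82, muscle markers in 5 of 5, at -0.51 to 0.41 against 2.5 to 2.93, and leukocyte markers higher in 7 of 8, at 1.29 to 1.35 against 0.81 to 1.1; their part in the rise of the members was not tested.

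In Py230 tumors the proteasome genes and a smaller set of antiviral genes were higher at 6 w p.i. than in C57BL/6 glands. Of all genes 28.8% were called higher in this comparison. All 6 proteasome and antigen processing genes were called higher, Lap3, Psma3, Psmb9, Psme1, Psme2 and Psme2b, by 0.12 to 0.28 score units. Of the ISG15 system only Isg15 was called, at 0.88, 0.66 and 0.96 against 0.20, 0.32 and 0.40 (0.52 ± 0.14, adjusted p = 0.00386), and of the core genes Isg15, Bst2, which tethers budding virions to the cell, and Rtp4 were called. The largest rises were those of C130026I21Rik (0.70 ± 0.14, adjusted p = 0.0003), Il7 (0.59 ± 0.068, adjusted p = 2.74e-07) and Isg15, and the largest decreases those of Txnip (-1.05 ± 0.14, adjusted p = 1.20e-06), Tmem140 (-0.40 ± 0.065, adjusted p = 1.75e-05) and Ccrl2, an atypical chemokine receptor (-0.31 ± 0.092, adjusted p = 0.00666). In both models 19 members were called higher (19.6% of all genes) and 2, Txnip and Plscr2, lower (10.5%) at 6 w p.i., and 27 were called higher in 4T1 tumors alone (17.4%), which is not a test of the difference between the models. Cd47 and Ifitm1 were called in opposite directions, higher in 4T1 tumors by 0.29 ± 0.057 and 0.67 ± 0.10 and with differences in Py230 tumors of -0.19 ± 0.057 and -0.28 ± 0.10. The call of Ifitm1 in Py230 tumors was lost without any of 4 libraries (adjusted p up to 0.0821). With cyclic loess normalization 18 members were higher and 12 lower, in place of 25 and 9. The 13 members higher in Py230 tumors at 3 w p.i. included Ifi44 (0.54 ± 0.16, adjusted p = 0.0198), Rsad2 (0.40 ± 0.13, adjusted p = 0.0315), Rtp4 (0.36 ± 0.10, adjusted p = 0.0125) and Cmpk2 (0.27 ± 0.088, adjusted p = 0.0293), all 16 core genes had a positive difference and 4 of them were called. The count of 14 fell to 1 without Py230 replicate 1, the library low in adipocyte and muscle markers, to 9 without Py230 replicate 2, to 6 without C57BL/6 gland replicate 1 and to 9 without gland replicate 2, and rose to 36 without Py230 replicate 3. Adipocyte markers were lower in Py230 tumors at 6 w p.i. in 6 of 6, at -0.12 to 0.92 against 1.76 to 2.1, and leukocyte markers were called in 0 of 8 at 3 and at 6 w p.i.

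**Figure D5:**
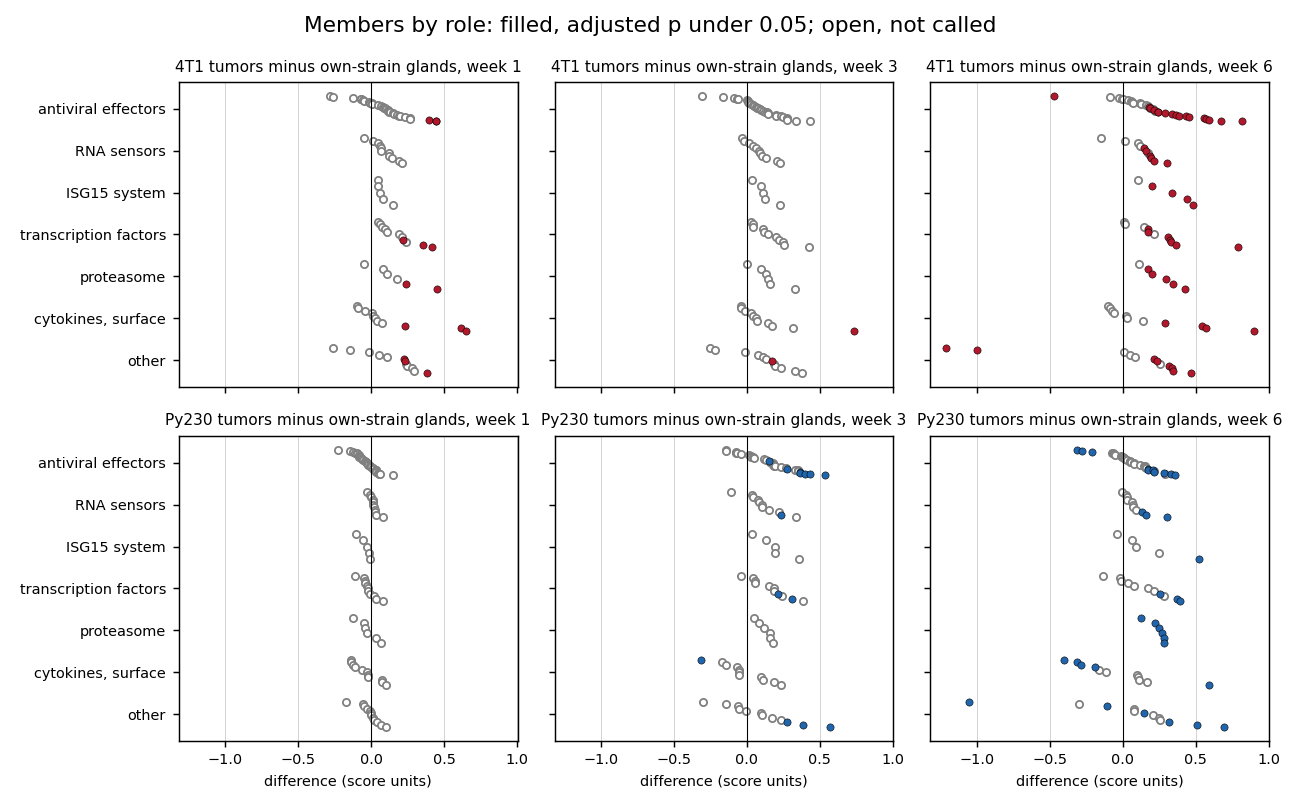
Difference of each of the 88 members between tumors and Matrigel glands of the same strain (horizontal axis, score units) by role (vertical axis), with 4T1 tumors in the upper and Py230 tumors in the lower row and weeks 1, 3 and 6 from left to right; filled points had an adjusted p under 0.05. Filled points number 14, 2 and 51 in the upper row and 0, 14 and 34 in the lower row.

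Within the models, the share of members called from one week to the next lay below that of all genes at every step. From 1 to 3 w p.i. 0 members were called in 4T1 tumors (0.628% of all genes, 0.254% higher and 0.374% lower, with 4 members at an unadjusted p of 0.05 in limma's test, and at most 5 in any alternative run), and 8 were higher and 1 lower in Py230 tumors (20.0%, 12.8% and 7.17%). From 3 to 6 w p.i. 19 were higher and 4 lower in 4T1 tumors (53.0%, 34.2% and 18.8%), and 2 were higher and 1 lower in Py230 tumors (6.03%, 3.96% and 2.06%). In Py230 tumors the first step held Nmi, at 0.37, 0.41 and 0.48 and then 0.93, 0.80 and 0.51 (0.32 ± 0.077, adjusted p = 0.00482), and C130026I21Rik (0.53 ± 0.14, adjusted p = 0.012), and the second held Il7 (0.63 ± 0.068, adjusted p = 1.39e-06). In 4T1 tumors the second step held Mov10 (0.69 ± 0.082, adjusted p = 1.53e-07), Ifitm1 (0.59 ± 0.10, adjusted p = 2.92e-05), Procr (0.47 ± 0.076, adjusted p = 1.18e-05) and Isg15 (0.41 ± 0.14, adjusted p = 0.0188). The change of the difference between the tumors from 1 to 3 w p.i. was called for 3 members, Procr, Tmem140 and Nmi (15.3% of all genes, 4.89% positive and 10.4% negative), with 17 called without 4T1 replicate 1 of 3 w p.i., 15 without Py230 replicate 3 of 3 w p.i., 6 without 4T1 replicate 2 of 1 w p.i. and 1 without any of 8 others of the 12 libraries. In Py230 tumors the count of 9 from 1 to 3 w p.i. was 1 without replicate 1 of 3 w p.i., 5 without replicate 2 and 19 without replicate 3, and the count of 3 from 3 to 6 w p.i. was 9 without replicate 1 of 3 w p.i. and 1 without replicate 1 or 2 of 6 w p.i. With cyclic loess normalization 9 members rose and 9 fell in 4T1 tumors from 3 to 6 w p.i., in place of 19 and 4, and 38 were called without 4T1 replicate 1 of 3 w p.i., 13 without its replicate 2 or 3 and 14 without 4T1 replicate 1 of 6 w p.i.

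The type I interferon genes themselves (Ifna and Ifnb1) were not analysed here, and of the pathway list written around the members 24 genes had a row. Both receptor chains were measured, and Ifnar2 was higher in 4T1 tumors at 1 w p.i. by 0.17 ± 0.047 (SE, adjusted p = 0.0146) and at 3 w p.i. by 0.17 ± 0.047 (SE, adjusted p = 0.00859), while Ifnar1 differed by 0.12 ± 0.059 and 0.077 ± 0.059 (adjusted p = 0.144 and 0.347). The interferon-gamma gene Ifng differed at 3 w p.i. by 0.19 ± 0.10 (adjusted p = 0.176). Of the 24 pathway genes, 10 were higher and 0 lower in 4T1 tumors at 1 w p.i., 8 and 2 at 3 w p.i., and 2 and 1 at 6 w p.i., against 19.4%, 30.3% and 40.8% of all genes called in either direction. The kinase gene Ikbke, which activates interferon regulatory factors, was higher at 3 w p.i. by 0.34 ± 0.087 (SE, adjusted p = 0.00426), and the negative regulator Socs1 by 0.56 ± 0.15 (SE, adjusted p = 0.00502), while Ddx58, the RNA sensor RIG-I, was lower by -0.39 ± 0.075 (SE, adjusted p = 0.000297). Of 49 further interferon-stimulated genes outside the members, 8 were higher and 8 lower at 3 w p.i. (30.3% of all genes), the lowest being Ifi213 (-1.22 ± 0.11, adjusted p = 1.22e-08), Apol9a (-0.90 ± 0.18, adjusted p = 0.000464) and Apol9b (-0.81 ± 0.18, adjusted p = 0.0014). Between the glands 12 of these 49 genes were lower and 0 higher in BALB/c mice (11.0% of all genes were called), with Ifi213 (-1.28 ± 0.066, adjusted p = 1.54e-14) and Ifi209 (-0.73 ± 0.085, adjusted p = 4.04e-07) at the head. At 6 w p.i. 30 of the 49 were higher and 2 lower in 4T1 tumors than in BALB/c glands, and 13 and 4 in Py230 tumors against C57BL/6 glands, where 60.1% and 47.6% of all genes were called. Of 7 markers of plasmacytoid dendritic cells, the cells known for high interferon output, 2 were higher and 2 lower in 4T1 than in Py230 tumors at 1 w p.i., 3 and 1 at 3 w p.i., and 1 and 2 at 6 w p.i. Their mean level in 4T1 and Py230 tumors was 0.092 to 0.13 and 0.016 to 0.21 at 1 w p.i. It was 0.062 to 0.30 and -0.12 to 0.034 at 3 w p.i., and -0.57 to -0.37 and -0.14 to 0.036 at 6 w p.i. This mean was higher in 4T1 tumors at 3 w p.i. and lower at 6 w p.i., without overlap, while single markers went both ways. In these weeks 32.6% and 58.2% of all genes did not overlap in either direction. The part of these markers in the member differences was not tested.

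In none of the 19 comparisons were 15 members called, namely Ddx60, Elf1, Ifit2, Ifitm2, Irf7, Irf9, Lgals3bp, Lpar6, Mx1, Mx2, Ncoa7, Parp9, Samd9l, Trim26 and Uba7. They include the transcription factors Irf7 and Irf9, which drive the response, and Mx1. The share of all genes called in none of the comparisons was not counted, so the number is not read as a trait of the members. Irf7 ranged from 0.72 to 1.52 over the 36 libraries with a median of 1.06, and Mx1 from -0.43 to 0.52 with a median of 0.090. In the C57BL/6 glands at 1 w p.i. alone, Irf7 was at 1.52, 1.0 and 1.08 and Mx1 at 0.52, 0.022 and 0.090, so that 3 libraries of 1 group covered much of the range over all groups. With 3 libraries against 3, an exact permutation test of 1 gene cannot go below p = 0.10, and the calls above rest on the spread that limma shares over the 36 libraries.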

How the data were processed

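RNA was measured in 36 stranded paired-end libraries of mouse tumors and Matrigel glands. According to the study's methods and the labels, the authors mapped reads with STAR to mm10, counted them per gene with summariseOverlaps and normalized them with DESeq2, and versions are not given in the sources used here. The deposited expression score of each library has mean 0 and SD 1 over 21650 genes, is no count and keeps no depth, so no counting interval is given. How it was scaled is not given in the sources used here. The deposited comparison tables hold the authors' mean normalized count, used for levels, and fold changes and p-values of the authors, which were not used. The authors' 1 and 0 columns of gene sets chose the members, and all 36 score columns were matched to labels.

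Scores were fitted with limma 3.58.1 (R 4.3.3), with 1 mean per group over 36 libraries, trended and robust moderation, and Benjamini-Hochberg adjustment over 21650 genes, at a threshold of 0.05 in 19 comparisons. Named members are the core interferon-stimulated genes, up to 4 in each direction per comparison with the largest called differences, and the 2 of each role with the smallest p, with up to 3 in each direction from lists outside the members. Some genes taken by this rule are not reported here. Chosen after their values were seen were Epsti1 in glands, Ifit3b, Procr, Cd47, Ddx58, Ikbke, Ly6e, Mov10, Gbp2b and Ifitm1 in some tumor comparisons. Members and lists were chosen with earlier results of these data known. Alternatives were quantile and cyclic loess normalization, a mean count minimum of 10, no trend and robust moderation, a replicate block, only the groups compared, and each library left out.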

Additional observations from a re-analysis of the deposited data

Results flagged for a closer look

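Among the members named with values, 20 differences of differences passed limma's test, which asks of each gene whether the tumor difference departs from the gland difference of the same week or changes between weeks. All adjusted p-values were under 0.05 over 21650 genes, but several of these calls were lost when single libraries were left out, as given below.

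At 3 w p.i. the difference between 4T1 and Py230 tumors exceeded that between the glands by 0.35 for Procr, 0.31 for Cd47, 0.31 for Tmem140 and 0.24 for Casp8. These calls were lost in 7, 3, 7 and 6 of 12 omissions of a single library, in that order. At 6 w p.i. it did so by 0.95 for Ifitm1, 0.79 for Cxcl11, 0.71 for Procr, 0.55 for Trim30d and 0.48 for Mov10, and departed in the other direction by -0.70 for Gmpr, -0.56 for Il7 and -0.23 for Ogfr. For Trim30d the positive value stands for a smaller negative difference in the tumors than in the glands. Of the calls at 6 w p.i., those of Cxcl11, Trim30d and Ogfr were lost in 8, 4 and 8 of 12 omissions, and the others were kept.

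From 1 to 3 w p.i. the difference between the tumors changed by 0.58 for Procr, 0.27 for Tmem140 and -0.35 for Nmi. From 3 to 6 w p.i. it changed by 0.55 for Ifitm1, 0.55 for Mov10, 0.39 for Plscr1, 0.33 for Procr and -0.58 for Il7. Omissions of a single library lost the earlier call of Tmem140 in 9 of 12 and of Nmi in 8 of 12. The later call of Procr was lost in 4 of 12, and the other calls of both steps were kept.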

How the results depend on the processing

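Of 110 called differences of members that were recomputed singly, none turned its direction under an alternative. Of these, 65 kept their call without any single library, and 159 of 888 omissions of a library lost a call. All 110 were kept with quantile normalization and with a mean count minimum of 10, and 108 with cyclic loess normalization. In fits of only the groups compared, which hold fewer libraries and their own spread, 44 calls were lost. The main fit shares the spread of a gene over all groups. The median SD of the members within a group ran from 0.044 in C57BL/6 glands to 0.15 in 4T1 tumors, both at 3 w p.i. The part of this in the lost calls was not tested.

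Quantile normalization called 5 members for the change of the tumor difference from 1 to 3 w p.i. and 5 for that from 3 to 6 w p.i., and cyclic loess 6 and 4, in place of 3 and 8. For Py230 tumors against glands at 3 w p.i. cyclic loess gave 11 higher and 3 lower in place of 13 and 1. Without trend and robust moderation 1 member was called for 4T1 tumors against glands at 3 w p.i., in place of 2. The cause was not tested.

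Fits of only the groups compared called 8 members between the tumors at 1 w p.i. and 6 at 3 w p.i., 1 beyond strain at 3 w p.i., 0 for 4T1 tumors against glands at 1 w p.i. and 0 at 3 w p.i., 0 for Py230 tumors against glands at 3 w p.i., 0 and 4 for the changes of the tumor difference from 1 to 3 and from 3 to 6 w p.i., 14 for 4T1 tumors from 3 to 6 w p.i., and 0 and 1 for the steps of Py230 tumors.

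Without both libraries of 3 w p.i. low in adipocyte markers, chosen after seeing the data, 17 members were called between the tumors, 0 beyond strain, 0 for 4T1 and 1 for Py230 tumors against glands, 6 for the change from 1 to 3 w p.i., 5 and 40 for the steps of 4T1 tumors, and 2 and 13 for those of Py230 tumors.

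Single libraries left out gave 6 to 23 members between the tumors at 1 w p.i., 16 to 32 at 3 w p.i. and 23 to 30 at 6 w p.i., 10 to 18 between the glands, 0 to 8, 0 to 12 and 14 to 18 beyond strain, 0 to 18, 0 to 12 and 39 to 52 for 4T1 tumors against glands, 0 to 0, 1 to 36 and 23 to 30 for Py230 tumors against glands, 1 to 17 and 4 to 12 for the changes of the tumor difference, 0 to 3 and 13 to 38 for the steps of 4T1 tumors, and 1 to 19 and 1 to 9 for those of Py230 tumors.

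The labels give groups the same replicate numbers, but nothing says that a number marks a shared litter or day. Of 27 pairs of same-numbered libraries, 7 had deviations that correlated above 0.1 (r from -0.47 to 0.52), and 7 correlated best with their own number, so the numbers were not taken as pairs. The replicate block gave 1 call beyond strain at 1 w p.i. in place of 0, 4 for 4T1 tumors against glands at 3 w p.i. in place of 2, and changed 1 of the 110 calls. Depth is unknown from the scores, so its limits could not be stated.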
